A study of Mus musculus with 13 samples.

Results

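The NF-κB subunits and their inhibitors are 10 of the 16382 genes in the deposited table, and they were chosen by name for their place in 1 pathway. Rela, Relb, Rel, Nfkb1 and Nfkb2 encode the 5 subunits. Nfkbia, Nfkbib and Nfkbie encode the inhibitors IκBα, IκBβ and IκBε, which act in the cytoplasm. Nfkbiz encodes IκBζ, an IκB protein of the nucleus, and Tnfaip3 encodes the ubiquitin-editing enzyme A20. All 10 were in the table, and all passed the filter on low counts.

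NF-κB dimers rest in the cytoplasm, held there by IκB proteins. Signals from receptors such as those for TNF, interleukin-1 and bacterial products activate the IκB kinase complex, IκB is phosphorylated and degraded, and the freed dimer enters the nucleus. Among the genes it switches on are its own inhibitors, Nfkbia and Tnfaip3 in particular, and so the transcripts of the inhibitors are often read alongside those of the subunits. In skeletal muscle the pathway is known for its part in inflammation, wasting and the timing of differentiation.

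The libraries came from C2C12, a mouse myoblast line (labelled wild type) that fuses into myotubes when serum is lowered. Myotubes at day 8 of differentiation received vehicle (DMSO, here CON) or 10 µM palmitoylethanolamide (PEA), a fatty acid amide, for 24 h before RNA was taken, with 6 libraries in each group. The design was 2 wells per treatment in 3 repeats of the experiment. The methods call the 2 wells technical replicates, so the spread between libraries is in part technical. Which libraries are wells of 1 repeat is not given by the labels. The p-values therefore treat the 6 libraries of a group as independent and may be too small.

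Depth lay between 12354845 and 50397444 estimated counts per library with a median of 18420605, and CON 1 was 2.25 times as deep as the next. The myotube markers Acta1 and Des were high in every library (at least 41250 and 33170 normalized counts). Ptprc, the pan-leukocyte marker, was at 0 in at least 6 of the 12 libraries and never above 5.06. Levels are normalized counts, that is estimated counts divided by 1 size factor per library, and a change is PEA against CON on the log2 scale. In bulk RNA, fewer cells of a type and less RNA per cell cannot be told apart.

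Promoter sequence was available for 7 of the 10 genes, and it is shown because the pathway feeds back on its own genes. The sequences are from RefSeq (GRCm38.p6), each was found once by exact match in GRCm39, and positions are given in GRCm39. They were searched on both strands for the κB consensus, the element of 10 bases that NF-κB dimers bind, over the 250 bases before each RefSeq start site. A match was found for 5 genes (Nfkbia, Nfkbie, Rel, Nfkb2 and Tnfaip3) and none for Rela or Nfkbib. Of 27025 mouse genes with a promoter in the same table, 8.23% held a match. A match describes the letters only, and no binding was measured here. Nfkb1, Relb and Nfkbiz had no entry.

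The whole window is given for Nfkbia, the one member with a promoter entry that passed the edgeR test below. It overlaps no annotated exon, it ends at the base before the gene's first exon, and capitals mark the match, 29 to 20 bases before the start.
Nfkbia, chr12:55539433-55539682 (- strand): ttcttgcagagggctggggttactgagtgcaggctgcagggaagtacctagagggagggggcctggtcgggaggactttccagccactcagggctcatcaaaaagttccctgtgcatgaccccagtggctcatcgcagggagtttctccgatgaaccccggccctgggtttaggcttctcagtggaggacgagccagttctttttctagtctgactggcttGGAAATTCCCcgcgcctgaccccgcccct

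For the other 4 genes the match is given with its flanks, again in capitals. The windows of Rel and Nfkb2, and that of the Tnfaip3 match nearest the start, lie inside exons of these genes in the GENCODE annotation. The Tnfaip3 and Nfkb2 promoters each held more than 1 match. The Rel and the first Nfkb2 runs are a pair of matches that overlap, 1 on each strand.
Nfkbie, chr17:45866511-45866538 (+ strand): cagcaaacaGGGGGATTCCggaggggcg
Rel, chr11:23721042-23721070 (- strand): gtaagcagcGGGAAATCCCCccccctccc
Tnfaip3, chr10:18891265-18891292 (- strand): actcacgcgGGGACACCCCggggcggga
Tnfaip3, chr10:18891159-18891179 (- strand): atttccatcGGAAATCCCCct
Nfkb2, chr19:46293128-46293156 (+ strand): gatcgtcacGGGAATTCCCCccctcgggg
Nfkb2, chr19:46293156-46293175 (+ strand): gggccgaaaGGGGCTTTCCc
The distances from the start site (first base of the match) were 106 bases for Nfkbie, 92 for Rel, 125 and 12 for Tnfaip3, and 39 and 11 for Nfkb2. A second Tnfaip3 promoter in the table held no match, and each of the 2 further Nfkb2 promoters held 1.

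After 24 h of PEA, 2 of the 10 genes passed the edgeR test, and both encode IκB proteins and fell. In the 12 fits that left 1 library out, Nfkbiz passed in 12 and Nfkbia in only 3. Nfkbiz fell by 16.8% (log2 fold change -0.27 ± 0.06, SE) and Nfkbia fell by 16.7% (-0.26 ± 0.08). None of the 5 subunits passed the edgeR test in either direction, while 1 of them, Relb, was lower at an unadjusted p under 0.05 and by DESeq2. No member rose by edgeR, DESeq2 or limma-voom, and 1, Nfkbib, was higher at an unadjusted p under 0.05. Among all 13142 genes tested by edgeR, 11.0% passed at an adjusted p of 0.05, 4.74% as lower and 6.31% as higher in PEA. With 10 members, the count of 2 against this background rests on few genes. The median change of the 10 was -0.03, against 0.005 for all genes tested, and the median absolute change was 0.14 against 0.11.

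**Figure D1:**
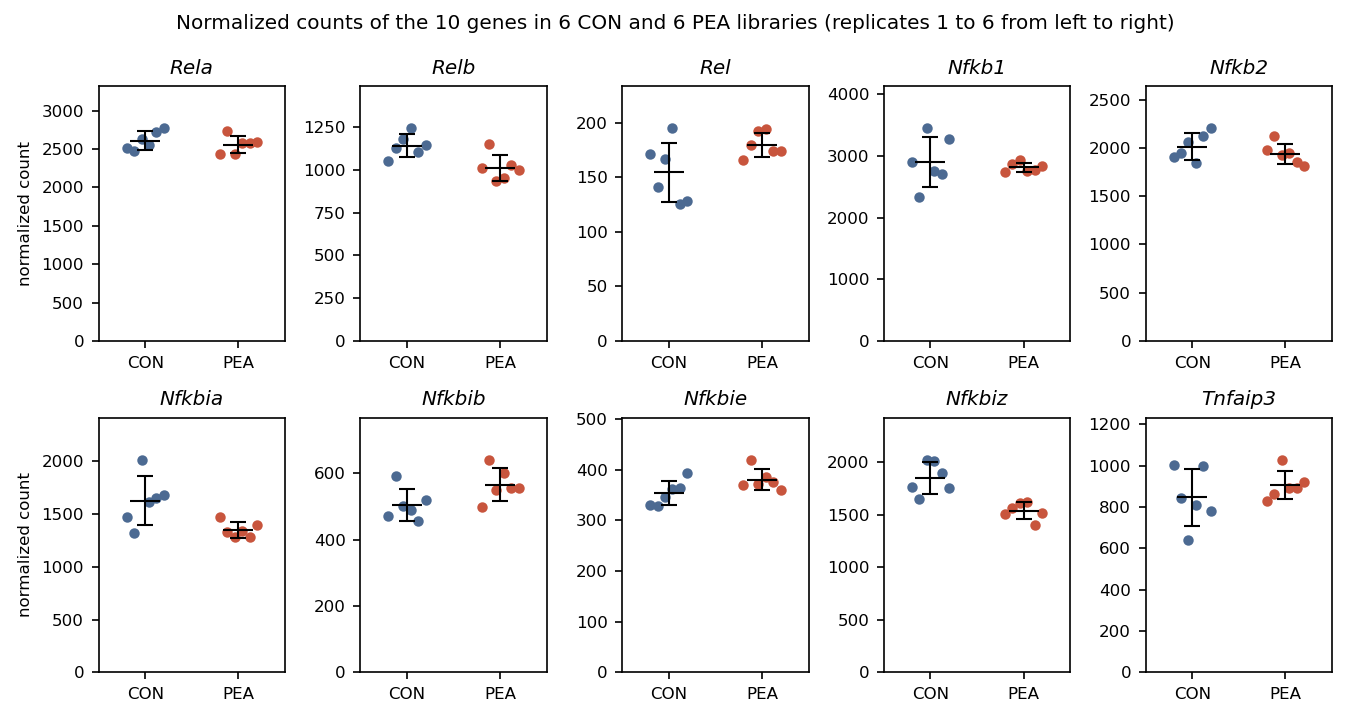
Normalized count (vertical axis, from 0, own scale per gene) of each of the 10 genes in the 6 CON (blue) and 6 PEA (red) libraries, ordered by replicate number from left to right, with mean and SD in black. Nfkbiz is the one panel where every PEA point lies below every CON point, the closest being 1616 and 1651.

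Nfkbiz encodes IκBζ, an atypical IκB that partners NF-κB dimers on chromatin and is needed for a class of secondary response genes. The gene is ENSMUSG00000035356, at chr16:55631738-55659262 on the minus strand (GRCm39). Its normalized count ran from 1651 through a median of 1833 to 2020 in CON, and from 1405 through 1540 to 1616 in PEA. The groups did not overlap. This held for 4.34% of all genes tested and for no other member. The 95% interval of the change was -0.38 to -0.15 and the adjusted p was 0.0078 (edgeR). Leaving out each of the 12 libraries in turn kept the call every time, with adjusted p from 0.00149 to 0.0238.

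Nfkbia encodes IκBα, the inhibitor resynthesised after activation that carries RelA dimers back out of the nucleus. The gene is ENSMUSG00000021025, at chr12:55535332-55539432 on the minus strand. In CON its normalized count was lowest at 1323, with a median of 1630 and a highest value of 2010. In PEA it ran from 1279 through 1333 to 1471. All 6 PEA libraries lay below the CON median, but the groups overlapped, since CON 2 (1323) and CON 1 (1468) fell within the range of PEA. The adjusted p was 0.0386 (95% interval -0.43 to -0.10). It held in 3 of the 12 fits that left 1 library out, with adjusted p from 0.00509 to 0.086. In 8 of the 9 others the change stayed between -0.25 and -0.27, and without CON 3, the highest library, it was -0.19 (adjusted p = 0.0618).

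The other cytoplasmic inhibitors did not pass the test. Nfkbib, whose product IκBβ is a slower and more lasting brake, ran from 456 through 495.9 to 593.5 normalized counts in CON and from 497.9 through 554.5 to 640.3 in PEA. Its change was 0.17 (95% interval 0.01 to 0.32), with an adjusted p of 0.16. Nfkbie, whose product IκBε is another inducible member, ran from 328.4 through 353.9 to 393.5 in CON and from 358.9 through 373.5 to 419.1 in PEA, a change of 0.11 (interval -0.04 to 0.25, adjusted p = 0.344). For both genes every PEA library lay above the CON median, yet the groups overlapped and neither passed the test. Exons of Nfkbib overlap those of antisense genes, and whether counting used strand is not given in the sources used here.

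Per kilobase of exon, the 3 cytoplasmic inhibitors summed to a mix in which Nfkbia made up 73.5% ± 3.43 of CON and 67.8% ± 2.38 of PEA (mean ± SD over 6 libraries each). The CON share ran from 67.4% in CON 2 to 77.8% in CON 3, and the PEA share from 64.9% to 71.7%. These ranges overlap at CON 2, and the share is given without a test because the genes in it were chosen with their changes known. The per-kilobase sum of the 3 inhibitors over that of the 5 subunits averaged 0.746 ± 0.049 for CON and 0.700 ± 0.0264 for PEA, again with overlapping ranges (0.708 to 0.841 and 0.671 to 0.741).

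Tnfaip3 encodes A20, which removes activating ubiquitin chains from signalling proteins and is induced by NF-κB itself. Its normalized count ran from 642.8 through 828.4 to 1002 in CON and from 829.8 through 892.7 to 1028 in PEA. Every PEA library lay above the CON median and the groups overlapped. The change was 0.10 (interval -0.09 to 0.29, adjusted p = 0.531). With 1 library left out it ran from 0.03 to 0.16 and was never called. Without CON 3 (642.8) and CON 6 (780.9) it was -0.01. These are the lowest CON libraries for this gene, so that fit cannot decide its direction. As the interval spans 0, no direction is read from these data.

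**Figure D2:**
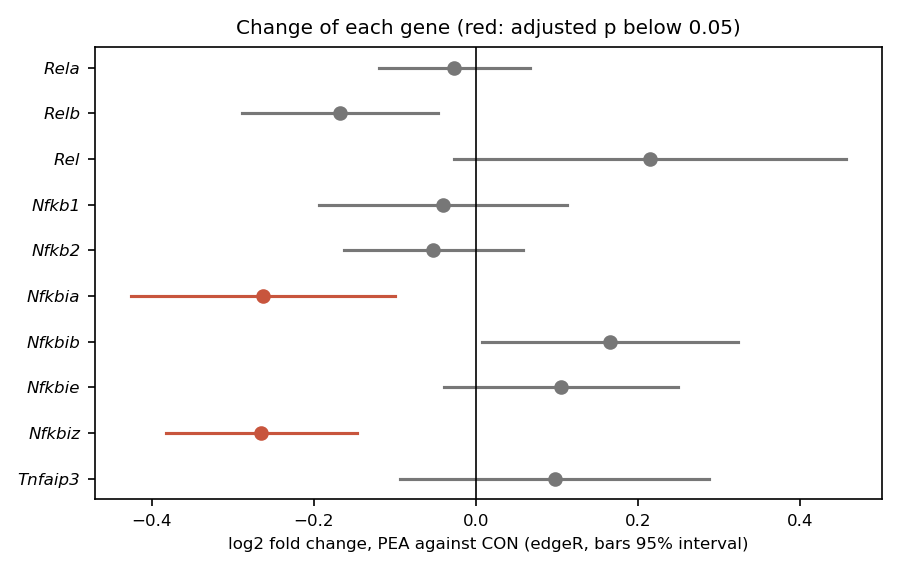
Log2 fold change, PEA against CON, of each gene with its 95% interval from edgeR (horizontal axis), red where the adjusted p is below 0.05. Nfkbia and Nfkbiz are the only red genes, at -0.26 and -0.27, while the intervals of Relb and Nfkbib also lie to one side of 0 but miss the threshold after adjustment.

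Of the subunits, Relb came closest to a call. RelB carries the non-canonical arm of the pathway together with the p52 product of Nfkb2. Its normalized count ran from 1050 through 1136 to 1242 in CON and from 936.7 through 1006 to 1150 in PEA, with 5 of 6 PEA libraries below the CON median. The change was -0.17 (95% interval -0.29 to -0.05, adjusted p = 0.0669). By DESeq2, which called 14.5% of the genes it tested, 3 of the 10 members passed, Relb being the third (adjusted p = 0.0455). Of the 12 edgeR fits that left 1 library out, 1 called it. This was the fit without PEA 2, the highest PEA library for Relb (-0.21, adjusted p = 0.0302). In the others the adjusted p reached 0.138.

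Rela encodes p65, the transactivating partner of the canonical dimer. Its levels were the steadiest of the subunits in CON, with a coefficient of variation of 4.5% there and 4.4% in PEA. The count ran from 2470 through 2594 to 2768 in CON and from 2430 through 2578 to 2730 in PEA. The change was -0.03, and its 95% interval, -0.12 to 0.07, was the narrowest of the 10.

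Nfkb1 encodes the p105 precursor of p50. Its count ran from 2333 through 2834 to 3447 in CON and from 2748 through 2808 to 2933 in PEA, so the PEA libraries all lay inside the CON range. The change was -0.04 (interval -0.19 to 0.11). The spread differed more than the mean did, with a coefficient of variation of 13.9% in CON and 2.6% in PEA. The extremes in CON were CON 2 (lowest) and CON 3 (highest), and without CON 3 the sign of the change turned (0.01).

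Nfkb2 encodes the p100 precursor of p52. It ran from 1843 through 2007 to 2203 in CON and from 1811 through 1936 to 2120 in PEA (change -0.05, interval -0.16 to 0.06). Its exons share 1933 bases with the antisense gene Psd. Rel, the c-Rel subunit best known from lymphocytes, was the scarcest member. It ran from 125.8 through 153.6 to 194.6 in CON and from 166 through 176.9 to 193.8 in PEA, with every PEA library above the CON median. The change of 0.22 was the largest upward value among the members but also the least certain (SE 0.12, interval -0.03 to 0.46, adjusted p = 0.239).

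**Figure D3:**
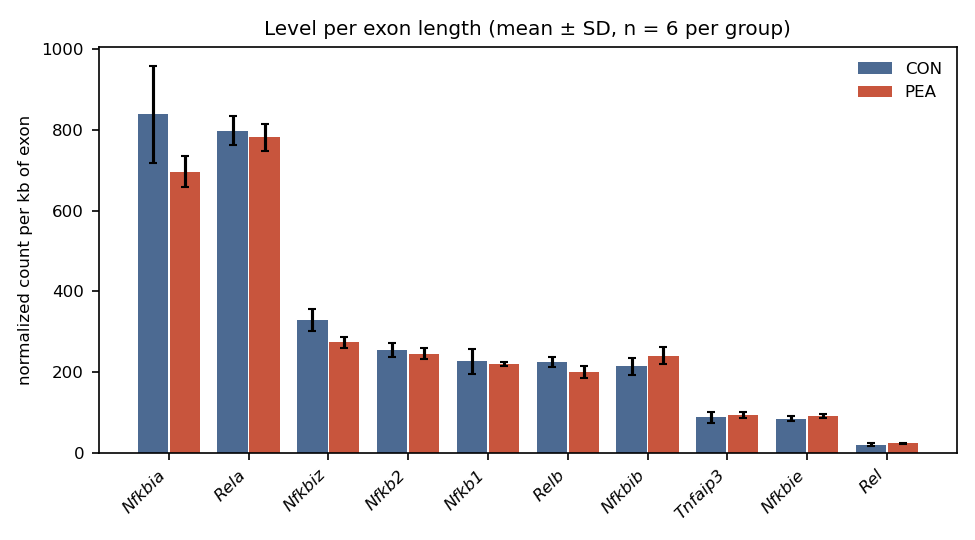
Normalized count per kilobase of annotated exon (vertical axis, from 0) for each gene, bars giving the mean and whiskers the SD of 6 libraries, CON in blue and PEA in red. Nfkbia and Rela stand well above the rest, at 838 and 798 in CON, and Rel is lowest at 19.9.

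Compared per kilobase of exon, Nfkbia (838 ± 119, SD, n = 6) and Rela (798 ± 36) were the most abundant of the 10 in CON, and their libraries overlapped. A gap then separated Nfkbiz (329) from Rela with no overlap between libraries. Nfkbiz in turn lay clear of Nfkb2 (255). Nfkb2, Nfkb1 (226), Relb (224) and Nfkbib (214) followed, and each overlapped the next. Tnfaip3 (87.2) and Nfkbie (84.5) overlapped each other, and Rel (19.9) stood alone below them. Among all genes tested, Rela ranked at the 91.7th percentile of mean level per kilobase over all 12 libraries, Nfkbia at the 91.4th and Rel at the 18.8th. In PEA the mean of Rela (781) was above that of Nfkbia (697). Divided by the longest transcript instead of all exons, Nfkb1 (605) moved up to the third place.

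The libraries differed in ways that ran alongside the members. Within CON, library 2 was the lowest for 5 of the 10 genes (Rela, Nfkb1, Nfkbia, Nfkbie and Nfkbiz), and library 3 was the highest for Nfkb1, Nfkbia and Nfkbiz and the lowest for Tnfaip3. These libraries also stood at opposite ends for interferon response genes, a list of 20 symbols that name 19 genes, all of them tested. The summed level of that list was 12320 normalized counts in CON 3, 13400 in CON 6 and 64820 in CON 2, against 43740 to 68870 in PEA, and 6 of its genes rose (16 by limma-voom). Without CON 3 and CON 6, the libraries lowest in that sum, Nfkbiz remained lower in PEA (-0.25, adjusted p = 0.019) and Nfkbia had an adjusted p of 0.152 (change -0.16). CON 3 and CON 6 were also the highest CON libraries for Nfkbia itself (2010 and 1681). Leaving them out therefore lowers its CON level in any case. The part of the interferon genes in the Nfkbia value was not tested.

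Markers of myoblasts (Pax7, Myf5) and of dividing cells (Mki67, Top2a, Cdk1, Ccnb1) were read as 1 list of 6. It summed to 2481 to 5357 in CON and 5291 to 6229 in PEA, and the 4 markers of dividing cells rose. The 10 myotube markers summed to 114500 to 175600 in CON and 122000 to 137900 in PEA, where 2 fell and none rose. At an unadjusted p under 0.05, 5 of the 10 were lower and none higher. Of 10 macrophage and leukocyte markers 6 were in the table and none of the 3 tested passed by edgeR or DESeq2 (1 at an unadjusted p under 0.05). Their sum without Cd14, which many cell types express, was 74.3 to 155. The 4 endothelial markers in the table summed to 8.23 to 28.5, too low for any to be tested. Whether the mix of dividing and fused cells bears on the members was not tested.

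**Figure D4:**
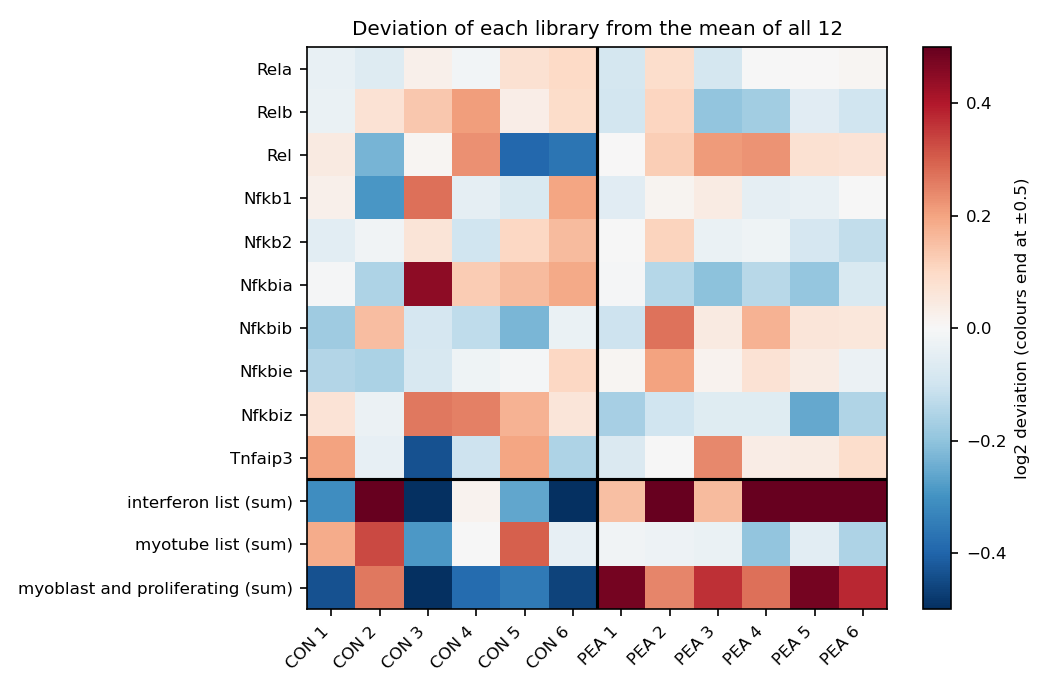
Deviation of each library (columns) from the mean of all 12, on the log2 scale, for the 10 genes and for the summed levels of 3 marker lists (rows below the line), red above and blue below, colours ending at ±0.5. CON 3 is high for Nfkbia, Nfkb1 and Nfkbiz and low for Tnfaip3 and the interferon list, while CON 2 lies on the side of the PEA libraries in the interferon list and in the list of myoblast and proliferating markers.

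Around the members lie the proteins that carry the signal, a list of 55 genes of which 52 were tested. Of these, 4 rose and 1 fell, 9.62% in all against 11.0% of all genes tested, and the median change was 0.03 against 0.005. DESeq2 called 4 higher and 2 lower, and at an unadjusted p under 0.05 there were 9 higher and 5 lower. The number called by edgeR ranged from 4 to 9 over the fits without 1 library. Ikbkg, the regulatory subunit NEMO of the IκB kinase complex, went from 1698 ± 90.8 to 1903 ± 103 normalized counts (SD, n = 6), a change of 0.17 (adjusted p = 0.0392) that was called in 5 of the 12 fits without 1 library. Its catalytic partners, named here for their role, did not pass, with changes of 0.17 for Chuk (adjusted p = 0.111) and 0.09 for Ikbkb (adjusted p = 0.298). Ripk1, the kinase scaffold at the TNF receptor, rose from 701.5 ± 30.5 to 843.3 ± 72.9 (change 0.27, adjusted p = 0.0127). Irak4, the kinase that links interleukin-1 and Toll-like receptors to the pathway, rose from 225.9 ± 30.9 to 305 ± 41.0 (0.44, adjusted p = 0.017).

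The largest change in that list belonged to Traip, named for its binding to TRAF proteins and also known as a ubiquitin ligase of DNA replication. It rose from 95.2 ± 9.02 to 165 ± 21.8 (0.80, adjusted p = 0.000892) with no overlap between groups. Commd1, which promotes the removal of RelA from chromatin, was the one gene that fell, from 1369 ± 50.9 to 1199 ± 41.1 (-0.19, adjusted p = 0.0117), and its groups did not overlap either. Traip, Commd1, Ripk1 and Irak4 were called in each of the 12 fits that left 1 library out. Without CON 3 and CON 6, Irak4 and Ikbkg no longer passed (adjusted p = 0.0776 and 0.138), with changes of 0.35 and 0.14.

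Ligands and receptors upstream were sparser. Of 47 listed, 38 were in the table and 27 were tested, and Tnf, Lta and Tnfsf11 were among those below the filter. In this list 1 gene rose and 3 fell, 14.8% of those tested against 11.0% of all genes, with a median change of 0.02. DESeq2 called 3 higher and 3 lower, and at an unadjusted p under 0.05 there were 9 higher and 4 lower. The number called by edgeR ranged from 3 to 7 over the fits without 1 library. Il33, an alarmin cytokine of the interleukin-1 family, fell from 2270 ± 338 to 1669 ± 106 (-0.44, adjusted p = 0.00349) and its groups did not overlap. Il1a, encoding interleukin-1α, fell from 56.1 ± 8.87 to 26.9 ± 11.6 (-1.06, adjusted p = 0.0169). Tnfrsf19, a TNF-receptor family member, was low throughout at 25.3 ± 9.01 and 9.37 ± 5.33 (-1.43, adjusted p = 0.0204). Its lowest CON value was 16.3 and its PEA median 8.52. It passed the filter on low counts through CON, so its call is not independent of that filter. Tnfrsf10b, a death receptor and p53 target, rose from 916 ± 68.4 to 1199 ± 93.7 (0.39, adjusted p = 0.00134) with no overlap.

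A list of further genes that NF-κB is known to switch on left out the members and the ligands and receptors, and so does not hold Nfkbia, Il1a or Il33, which fell. Of its 60 targets 54 were in the table and 50 were tested, and 13 rose while none fell, 26.0% of those tested, with a median change of 0.11. Of all genes tested 6.31% were called higher and 4.74% lower. At an unadjusted p under 0.05, 17 were higher and 3 lower, and DESeq2 called 12 higher and 3 lower, with 14.5% of all genes called. Those 3, named after their values were seen, were Fth1 (-0.11 by DESeq2), Ccl2 (-0.18) and Mmp3 (-0.32), with edgeR adjusted p of 0.115, 0.0631 and 0.0844. Ptx3, the soluble pattern recognition protein pentraxin 3, rose from 459 ± 111 to 1010 ± 178 (1.15, adjusted p = 0.000435) and did not overlap. Ptgs2, encoding cyclooxygenase-2, rose from 738 ± 94.2 to 1011 ± 106 (0.45, adjusted p = 0.00425). C3, the central complement component, rose from 2239 ± 329 to 3013 ± 165 (0.43, adjusted p = 0.00452) and did not overlap. Many of these genes answer to other factors too, and Ccl5 (1.43), Irf1 (0.41) and Tap1 (0.64) are also induced by interferon.

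The immediate early genes Junb (0.41), Ier2 (0.24) and Zfp36 (0.33), the matrix gene Tnc (0.73), the kinase gene Nuak2 (0.47) and the growth factor gene Csf1 (0.15) also rose. Of the 12 fits without 1 library, Csf1 was called in 2, Zfp36 in 3, Nuak2 and Tap1 in 4, Icam1 in 6, Irf1 in 8 and Ier2 in 11. Icam1, an adhesion molecule, rose from a very low level of 7.44 ± 7.50 to 29.8 ± 12.7 (1.83, adjusted p = 0.0353), and it was listed at 0 in at least 1 CON library. Its CON median was 6.443 and its lowest PEA value 15.96. Icam1 passed the filter on low counts through PEA, so its call among the 13 is not independent of that filter. With at least 10 counts required in every library, Icam1 was not tested and 12 targets passed. Without CON 3 and CON 6, 10 targets passed, 9 as higher and 1 as lower. They were 8 of the 13, without Irf1, Nuak2, Icam1, Zfp36 and Tap1, and 2 others, also named after their values were seen, Ccnd1 (0.19, adjusted p = 0.03) and Slc2a6, which was lower (-0.47, adjusted p = 0.00953). The changes of the 5 that no longer passed were 0.43 for Nuak2, 0.30 for Zfp36, 1.42 for Icam1, 0.25 for Irf1 and 0.39 for Tap1. The number called ranged from 7 to 16 over the fits without 1 library, with 7 when PEA 2, 4, 5 or 6 was left out and 8 without CON 5. The lists were drawn up with earlier results of these data known, so the counts are a description of these libraries.

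**Figure D5:**
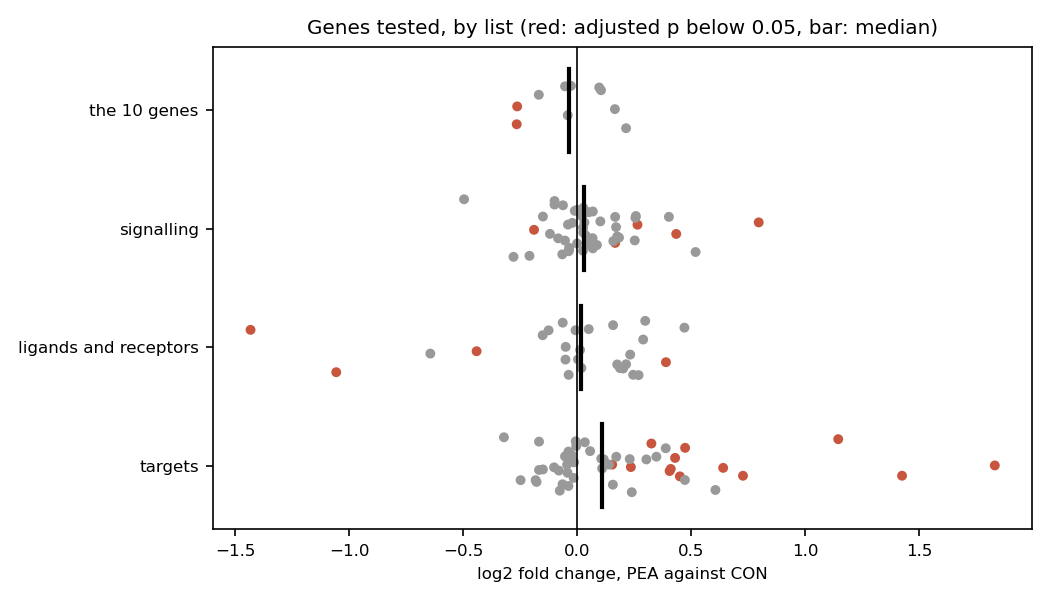
Log2 fold change, PEA against CON, of every gene tested in 4 lists (rows), 1 point per gene with vertical scatter for visibility, red where the adjusted p is below 0.05 and a black bar at the median. The called members lie at the left edge of their row, and all 13 targets called by edgeR lie to the right of 0.

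Over the 12 libraries, the genes whose log2 CPM ran most like Nfkbia were Aqp5 (Pearson r = 0.96), Actg2 (0.96) and Arf1 (0.96), and for Nfkbiz they were Ubl5 (0.96), Fnta (0.95) and Msra (0.94). They were picked as the highest of all genes tested, the libraries of a group share their treatment, and the values are a description.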

How the data were processed

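RNA from 12 cultures (6 CON, 6 PEA) was sequenced as poly-A selected libraries. According to the methods and the submitters' processing notes, reads were aligned to mm39 with STAR 4.4.1d and quantified to Ensembl genes in Partek Flow, and whether counting used strand is not given in the sources used here. The authors deposited estimated counts per gene without normalization. They also deposited a signal on a linear scale, each library's counts scaled by its own median-ratio size factor, which is the normalized count of the text. The labels name 13 entries, and PEA 2 and its top-up run name 1 set of counts that entered as 1 library. Symbols came from GENCODE (GRCm39) for 16343 of 16382 identifiers.

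Estimated counts were rounded and tested with edgeR 4.0.16 in R 4.3.3 (quasi-likelihood, TMM, default filter on low counts, Benjamini-Hochberg adjustment over 13142 genes, threshold 0.05), and the script was tested on simulated data. DESeq2 1.42.0, limma 3.58.1 and other filters, scalings, rounding, depth and left-out libraries were alternatives. Log2 CPM used a prior count of 2. Python 3.11.15 with pandas 2.3.3, numpy 2.4.6, scipy 1.17.1 and matplotlib 3.10.9 made tables and figures. The named genes are the 10 members, of each list the 3 with the smallest p and every gene called, and for each called member the 3 genes most correlated with it. Outside this rule, Chuk and Ikbkb were named for their role, and marker genes as checks of cell type. Fth1, Ccl2, Mmp3, Ccnd1 and Slc2a6 were named after their values were seen. Tnf, Lta and Tnfsf11 are examples of genes below the filter, and Psd was named for its exon overlap. Members and lists were chosen with earlier results of these data known. Estimated totals were 12354845 to 50397444, and errors cover counting and the spread between libraries only.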

Additional observations from a re-analysis of the deposited data

Results flagged for a closer look

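In CON 3, the per-kilobase sum of Nfkbia, Nfkbib and Nfkbie over that of the 5 subunits was 0.841, against 0.708 to 0.750 in the other CON libraries. Its gap to the nearest of them was 0.683 of the whole range of CON, above the 95% limit of Dixon's test for 6 libraries. Chance marks about 1 in 20 groups, and 22 groups were tested. Nfkbia was highest of CON in the same library (2010 normalized counts), where the interferon list was lowest (12320). Nothing was tested as a cause.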

How the results depend on the processing

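The fall of Nfkbiz held in all 12 fits without 1 library and under the 9 other settings tried (adjusted p from 0.000461 to 0.00843 in the latter). Nfkbia held in 8 of those 9, the exception being libraries thinned to the smallest total (-0.27, adjusted p = 0.051). With the replicate number as a block, Nfkbia was at -0.25 (adjusted p = 0.0469) and Nfkbiz at -0.26 (adjusted p = 0.0079), 2 members passed, and no member's call changed. Same-numbered libraries deviated with r from -0.08 to 0.07, and none of the 6 numbers correlated best with its own. The best r with another number was also low (0.04 to 0.13), so this cannot tell whether same-numbered libraries share a repeat. Leaving out 1 library, 1 to 3 members passed, 4 to 9 signalling genes (9 without CON 2), 3 to 7 ligands and receptors (7 without CON 2) and 7 to 16 targets. Nfkbib passed without CON 2 (adjusted p = 0.0428), and Relb passed after thinning (adjusted p = 0.0352). After thinning, 8 signalling genes passed. Without CON 3 and CON 6, chosen after seeing the data, 1 member and 3 signalling genes passed, and Nfkb1 (0.076) and Tnfaip3 (-0.014) changed sign. Without CON 3, Nfkb1 also changed sign (0.014, over a range of -0.097 to 0.014 with 1 library left out). The inhibitor to subunit ratio depended on the length used, at 0.281 in CON and 0.270 in PEA with no division by length and 0.650 and 0.611 with the longest transcript. The cause of these changes was not tested. Rel had the fewest estimated counts of the members (80 to 446).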
